A study of Mus musculus with 6 samples.

Results

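The proteasome subunits and the enzymes that activate and conjugate ubiquitin were examined with and without cadmium in the mouse line NIT-1, established from pancreatic beta cells. Members were all genes whose symbol starts with Psma, Psmb, Psmc, Psmd, Psme, Psmf, Psmg or Ube2, or with Uba and a digit, without pseudogenes named as such. This gave 50 of the 18572 genes measured under a single name. They were 8 core subunits, 11 genes of the regulatory cap, 4 assembly factors and 27 Uba or Ube2 genes. The control group had 3 arrays of cells kept 24 h in culture medium with serum, and the cadmium group 3 arrays of cells kept 24 h with 4 µmol/L cadmium sulphate (CdSO4), in both cases after an earlier 24 h in the plate. The series describes this dose as one that induces oxidative damage, and the comparison asks which transcripts differ after it. Both groups are the same established line with no other agent or genetic change named in the labels, so a value speaks for 1 line, 1 dose and 1 time. The samples are labelled as biological replicates, but separate passages or days are not named, and the p-values therefore cover only the variation among these 6 cultures.

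The proteasome degrades proteins that carry ubiquitin chains. Its core is a barrel of alpha rings, which gate the entrance, and beta rings, which hold the cutting sites. A regulatory cap on the barrel recognises ubiquitin, removes it and unfolds the substrate with a ring of ATPases. Ubiquitin is first activated by an E1 enzyme (Uba genes), passed to an E2 enzyme (Ube2 genes) and then attached by an E3 ligase. In many cells proteasome subunit genes are induced together when proteasome capacity is short, through the transcription factor Nfe2l1, and cadmium is known as a metal that binds thiols and damages proteins.

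Values are log2 signals as deposited, where the base of the logarithm is inferred from their range, and differences are cadmium minus control. A gene was called when its limma adjusted p over all 18572 genes was under 0.05. A fold is given only where both group means lay above a background bound of 6.18. This bound is the value that 95% of an array's negative controls stay under, averaged over the arrays. With 1 mean below it, a fold is a lower bound. Of the 50 members, 17 had both means above the bound, 4 had 1 and 29 had 0. A transcript below the bound can still be tested, but its level is not separated from that of control probes. Array medians lay between 3.34 and 3.40, each cadmium array above each control array, and the median difference over all genes was 0.044. Signals correlated across genes at 0.995 to 0.997 within groups and 0.987 to 0.991 between them. The markers of the labelled cell type were weak. Of 12 beta cell markers 6 were measured, all below the bound with 0 called, among them the insulin gene Ins2 at 5.27 ± 0.10 without and 5.29 ± 0.04 with cadmium (SD, n = 3 in each group). Of the other islet and the exocrine markers, 2 of 5 each were measured, all below the bound with 0 called. Of 5 stromal and immune markers, the leukocyte gene Ptprc lay at 2.12 and 2.18, and the collagen gene Col3a1 fell from 9.07 to 8.06, 2.01-fold (limma adjusted p = 0.0018). The part of these markers in the results was not tested.

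Upstream sequences are given for the called cap and assembly genes Psmc4, Psmd4 and Psmd9, the called genes of the proteasome, because they show which of 3 stress-related motifs lie near their starts. Each is the 250 bases before the start from RefSeq (GRCm38.p6), 5′ to 3′ in the direction of the gene: Psmc4 at chr7:28050093-28050342 on the minus strand, Psmd4 at chr3:95042615-95042864 on the minus strand and Psmd9 at chr5:123227940-123228189 on the plus strand. Capitals mark matches to the metal response element core (TGCACNC or TGCGCNC) in Psmc4 and Psmd4, and to the antioxidant response element (TGACNNNGC) in Psmd9.
Psmc4: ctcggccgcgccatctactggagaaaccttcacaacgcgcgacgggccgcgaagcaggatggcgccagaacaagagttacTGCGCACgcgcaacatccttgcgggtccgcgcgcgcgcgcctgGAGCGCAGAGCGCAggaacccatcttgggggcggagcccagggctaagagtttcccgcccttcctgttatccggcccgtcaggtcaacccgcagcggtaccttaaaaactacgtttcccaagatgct
Psmd4: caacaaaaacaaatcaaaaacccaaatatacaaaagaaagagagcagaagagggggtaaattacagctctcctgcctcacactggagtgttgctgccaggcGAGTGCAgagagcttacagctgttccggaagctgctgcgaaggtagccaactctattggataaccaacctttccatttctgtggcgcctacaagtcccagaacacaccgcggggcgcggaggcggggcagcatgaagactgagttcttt
Psmd9: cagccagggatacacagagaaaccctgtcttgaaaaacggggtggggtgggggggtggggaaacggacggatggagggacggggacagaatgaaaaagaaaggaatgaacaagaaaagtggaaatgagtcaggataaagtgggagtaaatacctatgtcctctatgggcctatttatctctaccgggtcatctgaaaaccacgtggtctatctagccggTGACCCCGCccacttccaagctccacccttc

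The run of capitals in Psmc4 nearest the start joins 2 adjacent matches, both on the strand opposite the gene, at 127 to 121 and 120 to 114 bases upstream, and its other match, at 170 to 164 bases, is on the strand of the gene. The Psmd4 match lies at 149 to 143 bases on the opposite strand. The Psmd9 match lies at 31 to 23 bases on the strand of the gene. Of the members, 41 had promoters in the table, 49 in all, and both strands were searched. The metal response core was found in 15 of these 49 (30.6%) and in 21.4% of all 32851 promoters. Among the 17 promoters of 15 core and cap genes it was found in 7 (41.2%), which include those of Psma4, Psma7 and Psmc2, whose differences were not called. The called E2 gene Ube2d3 also had a match, at 16 to 10 bases upstream on the opposite strand. Of the called members 7 had a promoter in the table. No match of any of the 3 motifs was found for Ube2f, Uba6, Ube2a or Uba1y. The antioxidant element was found in 4 of 49 (8.16%) and in 10.2% of all promoters, and in 0 of the 17 core and cap promoters. The heat shock element (3 alternating GAA and TTC triplets, beginning with either, with 2 free bases between neighbours) was found in 0 of 49 and in 0.466% of all promoters. A match of letters is a description of these windows and not a measured site. Matches of different motifs overlapped in 0 of the 49 promoters.

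With cadmium, 7 of 50 members rose and 1 fell, 14% and 2%, where 6.45% of all genes rose and 5.8% fell. Rises were a larger share among brighter genes. In a fit of the 9286 genes at or above the median level, which held 42 members, 9 members rose and 0 fell, where 12% of genes rose and 12.6% fell. Among the 2190 genes at or above the background bound, 5 of 20 members rose and 0 fell, where 18.7% rose and 13.5% fell. In the fit of all genes, those that rose were the cap subunits Psmc4 and Psmd4, the assembly factor Psmd9, and Uba1y, Ube2a, Ube2d3 and Ube2f, and the gene that fell was Uba6. Changes were small, the largest being 0.71 in Ube2f. Each array read the RNA of a whole culture, so fewer or more expressing cells and less or more RNA per cell cannot be told apart. The groups did not overlap in 14 members higher with cadmium (28%) and in 3 lower (6%), where this held for 22.8% and 13.1% of all genes. The median difference was 0.13 over the members and 0.044 over all genes. By role it was 0.22 in the core, 0.16 in the cap, 0.079 in the assembly factors and 0.072 in the Uba and Ube2 genes. With each array centred on its median, these became 0.17, 0.11, 0.031 and 0.023, and 2 members rose (Ube2d3 and Ube2f) and 1 fell (Uba6), where 4.42% of all genes rose and 8.09% fell. Of all called genes, 52.6% were higher with cadmium on the deposited scale, 35.3% after centring and 39.5% after quantile normalization, so directions of small differences depend on the offset between arrays.

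In the core, all 8 subunits had a higher mean with cadmium, by 0.10 to 0.31, where 62.5% of all genes did, and 0 passed the test. The catalytic beta subunit Psmb7 came nearest. Its controls read 7.46, 7.46 and 7.61 and its cadmium arrays 7.63, 7.95 and 7.88, with cadmium replicate 1 only just above the highest control. The difference was 0.31 ± 0.09 (SE, n = 3 per group), 1.24-fold, with limma adjusted p = 0.071. Psmb4, a structural subunit of the beta ring, read 6.18, 6.15 and 6.21 without and 6.23, 6.54 and 6.44 with cadmium, a difference of 0.22 with a limma 95% interval of 0.03 to 0.42 and adjusted p = 0.12. In both genes the groups did not overlap. Psmb10, an inducible catalytic subunit, read 5.96, 5.91 and 5.87 in controls and 5.88, 6.46 and 6.29 with cadmium. Here replicate 1 lay among the controls and the other cadmium arrays far above them. Psmb2, another beta subunit, had a difference of 0.27 (adjusted p = 0.14).

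The 4 alpha subunits showed the same split between cadmium arrays. Psma5 read 7.05, 7.01 and 6.92 in controls and 6.91, 7.39 and 7.31 with cadmium, so that replicate 1 was the lowest of all 6 arrays. Psma7 read 6.24, 6.18 and 6.24 against 6.06, 6.49 and 6.43, and its difference was 0.11 with an interval of -0.15 to 0.37. Psma4 differed by 0.20 (adjusted p = 0.31) and Psma1, the smallest difference in the core, by 0.10 (adjusted p = 0.52). The medians were 0.15 in the alpha ring and 0.28 in the beta ring, each over 4 genes, and the difference between rings was not tested.

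In the cap, 9 genes encode subunits of the particle. All 9 had higher means with cadmium, by 0.08 to 0.45, where 62.5% of all genes did, with 2 called. Psmc4, an ATPase of the unfolding ring, read 6.73, 6.71 and 6.86 in controls and 6.98, 7.27 and 7.23 with cadmium. Every cadmium array lay above every control. It rose by 0.39 ± 0.09 (SE, n = 3 per group), 1.31-fold, with limma adjusted p = 0.030. Psmd4, a receptor that binds ubiquitin chains, read 6.54, 6.51 and 6.68 against 6.81, 6.91 and 6.92, again without overlap, and rose by 0.30 ± 0.07, 1.23-fold (limma adjusted p = 0.026). Each call was lost without control replicate 1 or 2 or cadmium replicate 2 or 3, with adjusted p up to 0.11 for Psmc4 and 0.097 for Psmd4, and after array centring, at 0.051 and 0.052.

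Psmd8, a lid subunit, had the largest mean difference in the cap, 0.45 with an interval of 0.14 to 0.76, but missed the threshold (limma adjusted p = 0.071). Its controls read 6.09, 6.01 and 5.99 and its cadmium arrays 6.15, 6.66 and 6.63, so the groups did not overlap, yet replicate 1 lay near the controls. Psmd13, also of the lid, read 5.53, 5.55 and 5.59 against 5.65, 5.96 and 5.97, a difference of 0.30 (adjusted p = 0.076). Psmd14, the protease that removes ubiquitin from the substrate, read 5.13, 5.11 and 4.97 against 4.94, 5.37 and 5.38, and its groups overlapped. Psmc2 and Psmc3, further ATPases, differed by 0.13 and 0.16, Psmd7 of the lid by 0.20 and the scaffold Psmd1 by 0.08, with adjusted p from 0.24 to 0.60. The remaining cap genes are not subunits. Psmf1, an inhibitor that binds the core, differed by 0.11 with an interval of -0.07 to 0.28, and Psme3ip1, which binds an alternative cap, by 0.02 with an interval of -0.11 to 0.15.

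**Figure D1:**
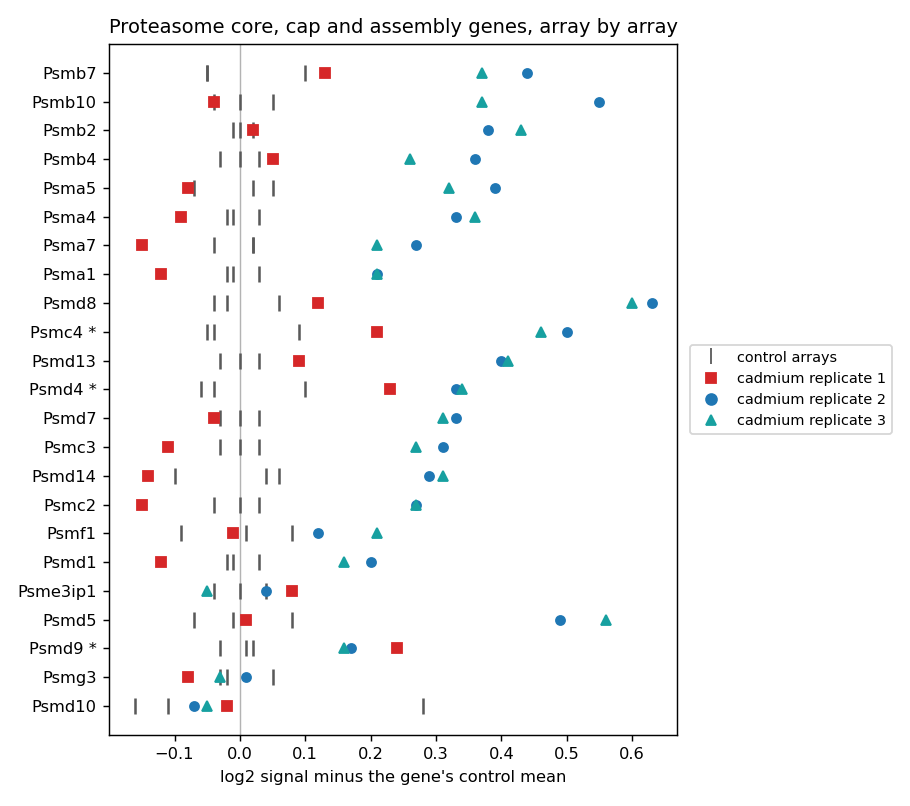
Log2 signal minus the control mean of each gene (horizontal axis) for the 23 core, cap and assembly genes (rows, core first). Grey ticks are the 3 control arrays, and the square, circle and triangle are cadmium replicates 1, 2 and 3. An asterisk marks the genes called at an adjusted p under 0.05 (Psmc4, Psmd4 and Psmd9). In the core and cap subunits replicates 2 and 3 lie to the right of all controls and replicate 1 to the left of both.

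Across the 17 core and cap subunits, cadmium replicates 2 and 3 lay above every control in 17 of 17, where this held for 42.6% and 41.2% of all genes. Cadmium replicate 1 was the lowest cadmium array in 17 of 17, where it was for 36.2% of all genes and 50.1% of the 2190 genes at or above the bound. In 9 of the subunits it lay below every control, in 2 within their range and in 6 above it. Counted with Psmf1 and Psme3ip1, it was lowest in 18 of 19, Psme3ip1 being the other. The median deviation of the core from its control means was -0.060, 0.37 and 0.34 on cadmium replicates 1, 2 and 3, and that of the 9 cap subunits -0.039, 0.33 and 0.31. Over all genes it was 0.042, 0.043 and 0.035, close together as the array medians were. Replicate 1 stood apart from the other cadmium arrays by another measure, since 1312 genes rose without it, against 595 and 613 without cadmium replicate 2 or 3. Among the controls, replicate 3 did likewise, with 1084 rises without it against 594 and 610 without control replicate 1 or 2. The median deviations of the Uba and Ube2 genes were 0.008, 0.082 and 0.077 on cadmium replicates 1, 2 and 3.

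**Figure D2:**
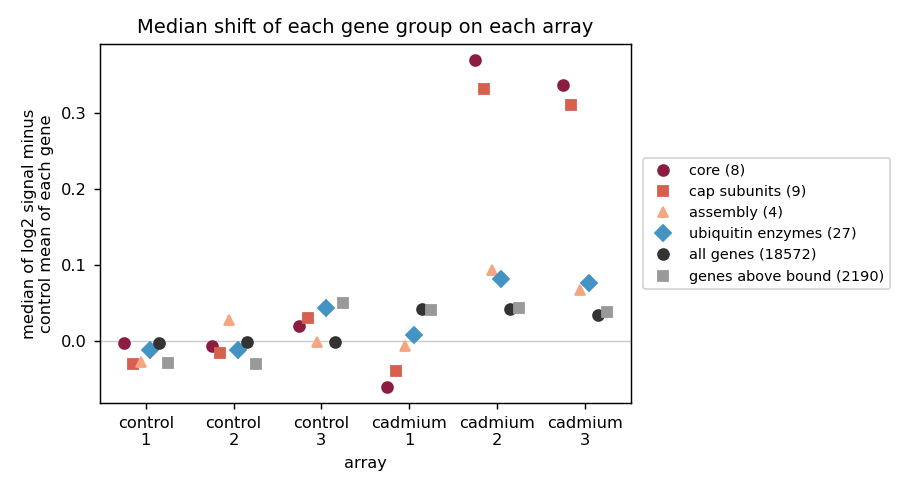
Median over the genes of a group of the log2 signal minus the gene's control mean (vertical axis) on each of the 6 arrays (horizontal axis). Symbols are the 8 core genes, 9 cap subunits, 4 assembly factors, 27 Uba and Ube2 genes, all 18572 genes and the 2190 genes at or above the bound. The core and cap symbols stand near 0.3 to 0.4 on cadmium replicates 2 and 3 and below 0 on cadmium replicate 1.

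Without cadmium replicate 1, which leaves 2 cadmium arrays, 22 members rose and 1 fell, where 7.06% of all genes rose and 5.6% fell. These were 7 of 8 core genes, all but Psma1 (adjusted p = 0.052), 8 of 11 cap genes, all but Psmd1, Psmf1 and Psme3ip1, the assembly factor Psmd5 and 6 Uba or Ube2 genes. The core median was then 0.35 and that of the 17 subunits 0.34. Psmd8 differed by 0.61 ± 0.06 (SE), with limma adjusted p = 0.0035, Psmb2 by 0.40 ± 0.05 (0.0073) and Psmb7 by 0.41 ± 0.07 (0.017). That array was singled out for these genes' own values, so these counts describe the data and are no independent test. Without control replicate 3, 5 members rose (5.84% of all genes). Without control replicate 1 or 2 or cadmium replicate 2 or 3, 1 member rose (Ube2f), where 3.2%, 3.28%, 3.2% and 3.3% of all genes did. Uba6 fell each time, where 3.12%, 2.86%, 2.9% and 2.97% of all genes fell without those 4 arrays and 5.45% without control replicate 3. The negative controls of replicate 1 had the highest 95th percentile, 6.25 against 6.12 and 6.13 on the other cadmium arrays and 6.14 to 6.21 on the controls, and the lowest median of the 6 arrays, 2.498 against 2.504 to 2.552 on the others. Its deviations from the group mean correlated across genes with those of control replicates 1, 2 and 3 at -0.108, -0.108 and 0.164. Deviations of the 3 controls sum to 0 in each gene, so such values cannot all have the same sign. The part of the negative controls or of these correlations in the split was not tested.

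Of the assembly factors, Psmd9, a chaperone of the ATPase ring, rose by 0.19 ± 0.05 (SE, n = 3 per group; limma adjusted p = 0.049). It read 4.69, 4.72 and 4.74 in controls and 4.95, 4.89 and 4.88 with cadmium, below the bound throughout, and here replicate 1 was the highest cadmium array. Its call was lost without any 1 of the 6 arrays (adjusted p 0.074 to 0.15) and after centring (0.12) or quantile normalization (0.11). Psmd5, another chaperone of the ATPase ring, read 4.51, 4.60 and 4.45 against 4.53, 5.01 and 5.08, a difference of 0.36 that was not called (adjusted p = 0.15) and followed the split of the subunits. Psmd10, a chaperone also known as gankyrin, differed by -0.05 (interval -0.31 to 0.22). Psmg3, a chaperone of the alpha ring, differed by -0.03 (interval -0.16 to 0.09).

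Among the E1 genes Uba6 was called lower and Uba1y higher, both below the bound, and Uba3 and Uba7 were not called. Uba6, which activates ubiquitin and the ubiquitin-like FAT10, read 4.18, 4.15 and 4.14 in controls and 3.77, 3.65 and 3.63 with cadmium. All cadmium arrays lay below all controls, and both groups lay below the bound, so no fold is given. It fell by 0.48 on the log2 scale (SE 0.06, n = 3 per group; limma adjusted p = 0.0027), and without any 1 array its adjusted p was 0.0035 to 0.017. Uba1y, the Y-linked relative of the main ubiquitin E1 gene, read 5.03, 5.02 and 5.01 against 5.31, 5.25 and 5.21 and rose by 0.23 (limma adjusted p = 0.026), a call lost without any 1 array (0.052 to 0.090) and after centring (0.051). Uba1y and Uba1 are near copies, so this signal is uncertain as to gene. The Y-linked genes Kdm5d and Uty fell, by 0.45 and 0.39 on the log2 scale (limma adjusted p = 0.0047 and 0.0060), and Eif2s3y differed by -0.13 (adjusted p = 0.13), all below the bound. Their bearing on Uba1y was not tested. Uba3, the catalytic subunit of the NEDD8 E1, differed by 0.07 (interval -0.09 to 0.24) and Uba7, the E1 of the interferon-induced ISG15, by 0.03 (interval -0.10 to 0.16). Uba1 itself was not analysed here.

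Among the Ube2 genes the largest change was in Ube2f, an E2 that carries NEDD8, the ubiquitin-like protein that activates cullin ligases. It read 6.49, 6.50 and 6.57 in controls and 7.11, 7.32 and 7.25 with cadmium, with a gap between the groups wider than the range within either. It rose by 0.71 with an interval of 0.55 to 0.87, 1.63-fold (limma adjusted p = 0.0015). The call held without any 1 array (0.0030 to 0.012) and under array centring and quantile normalization. Ube2d3, a broadly acting E2 that serves many ligases, read 5.97, 6.01 and 6.25 against 6.40, 6.60 and 6.62 and rose by 0.46 ± 0.10 (SE), at least 1.25-fold (limma adjusted p = 0.023). Its call was lost without control replicate 1 or 2 or cadmium replicate 2 or 3, with adjusted p up to 0.088. Ube2a, an E2 of DNA damage tolerance and histone ubiquitination, read 4.54, 4.52 and 4.55 against 4.74, 4.87 and 4.74 and rose by 0.25 (limma adjusted p = 0.031), below the bound. That call held only without cadmium replicate 1 among the single arrays left out, reaching 0.11 otherwise, and was lost after centring (0.061) or quantile normalization (0.064).

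The other Ube2 genes were not called. Ube2j1, an E2 of protein disposal at the endoplasmic reticulum, read 6.60, 6.60 and 6.84 in controls and 6.86, 6.91 and 6.88 with cadmium. Its groups did not overlap, the difference was 0.20 (adjusted p = 0.13), and it was called only without control replicate 3 (adjusted p = 0.022) among single arrays left out. Ube2v1, a partner of Ube2n without an active cysteine, differed by 0.22 (adjusted p = 0.15), and Ube2l6, an E2 of ISG15, by 0.11 (adjusted p = 0.25), both without overlap. Ube2k, an E2 that builds degradation chains, lay lower by a mean difference of -0.08 (adjusted p = 0.30), again without overlap. The cell cycle E2 genes of the anaphase-promoting complex, Ube2s and Ube2c, followed the subunits. Ube2s read 7.07, 7.09 and 6.99 in controls and 6.90, 7.50 and 7.42 with cadmium, and Ube2c 5.48, 5.34 and 5.18 against 5.16, 5.62 and 5.55, each with replicate 1 lowest of all 6 arrays. Without replicate 1 Ube2s was called (0.41, limma adjusted p = 0.011).

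Ube2h, an E2 that works with the multi-subunit CTLH ligase, had the reverse split. It read 6.93, 6.96 and 7.44 in controls and 7.59, 7.17 and 7.22 with cadmium, so control replicate 3 and cadmium replicate 1 were the 2 highest arrays. Nfe2l2, a stress transcription factor and no member, read 6.39, 6.39 and 7.26 against 7.14, 6.56 and 6.49, with the same 2 arrays highest. Both were singled out after their values were seen. Several members are near copies of other genes and uncertain: Ube2nl, a copy of Ube2n that RefSeq lists as a pseudogene, read 6.14, 6.15 and 6.16 against 6.15, 6.46 and 6.62, and Ube2d2b, Ube2dnl1 and Ube2dnl2 lay at or below a mean of 3.05. Ube2dnl1 had a difference of -0.17 (adjusted p = 0.10). Ube2cbp is an E3 despite its symbol and differed by 0.09. The remaining 8 E2 genes, Ube2d2a, Ube2e3, Ube2q1, Ube2q2, Ube2r2, Ube2t, Ube2u and Ube2w, had differences between -0.25 (Ube2t, an E2 of DNA crosslink repair) and 0.05 (Ube2q1).

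**Figure D3:**
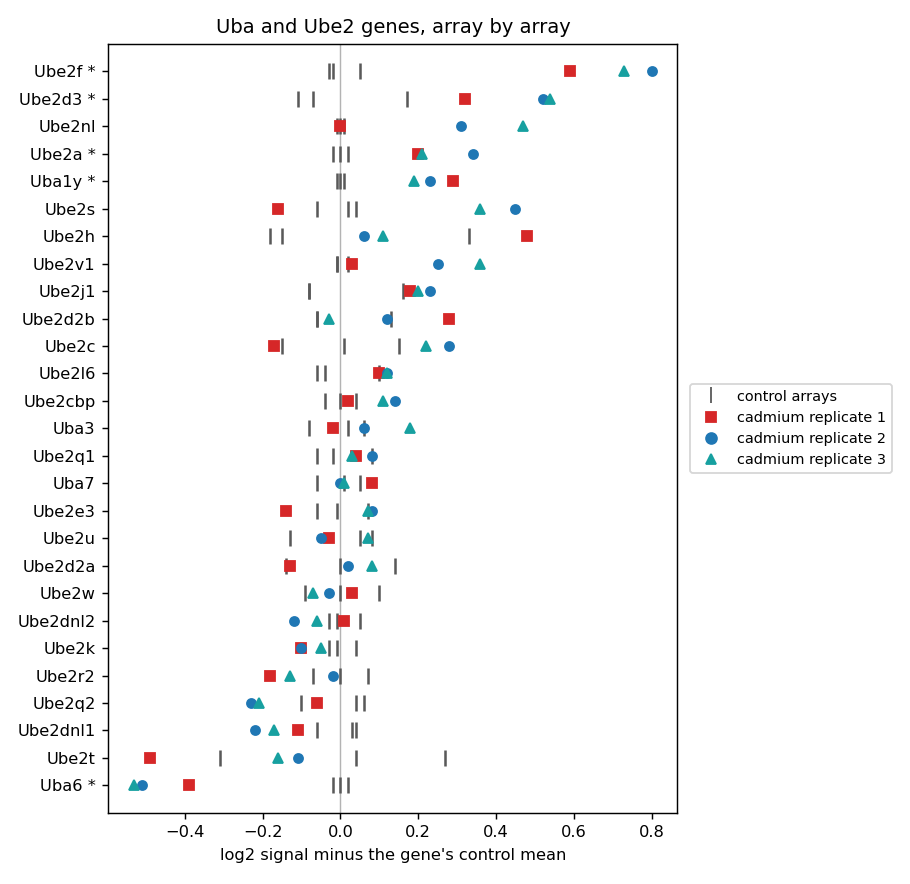
Log2 signal minus the control mean of each gene (horizontal axis) for the 27 Uba and Ube2 genes (rows, ordered by mean difference). Grey ticks are the 3 control arrays, and the square, circle and triangle are cadmium replicates 1, 2 and 3. An asterisk marks called genes. Ube2f at the top and Uba6 at the bottom stand clear of their controls on all 3 cadmium arrays, while Ube2s and Ube2c show replicate 1 on the left.

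Among other genes of the pathway, 11 of 124 measured rose (8.87%) and 27 fell (21.8%), where 6.45% and 5.8% of all genes did, and the median difference was -0.060. Their counts moved with the setting: after centring 5 rose and 37 fell, and without single arrays 2 to 10 rose and 16 to 26 fell, lowest without cadmium replicate 3 for both and also 16 lower without cadmium replicate 2. In the fit at or above the median level 14 of 109 rose and 30 fell, where 12% and 12.6% of genes did. In the fit at or above the bound 8 of 31 rose and 7 fell, where 18.7% and 13.5% of genes did. The largest rise was in Zfand2a, an arsenite-inducible protein that associates with the proteasome. It read 6.44, 6.37 and 6.24 in controls and 7.41, 7.87 and 7.57 with cadmium, 2.41-fold (limma adjusted p = 0.0015). Of the 9 proteasome-associated factors, Pomp, the chaperone of core assembly, also rose, by 0.30 (adjusted p = 0.046, lost after centring at 0.084 and up to 0.14 without control replicate 1 or 2 or cadmium replicate 2 or 3). Ecpas, a scaffold of the particle, fell by 0.50 (limma adjusted p = 0.0059). Both Pomp and Ecpas lay below the bound.

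Of 6 shuttle and receptor proteins 3 rose and 0 fell, where 6.45% of all genes rose and 5.8% fell, with a median of 0.22. Rad23b, which carries ubiquitinated proteins to the proteasome, rose 1.33-fold (limma adjusted p = 0.028). Hspa8, the constitutive chaperone, rose 1.21-fold (0.027) and Bag1, its co-chaperone at the proteasome, at least 1.13-fold (0.043). The calls of these 3 were lost without control replicate 1 or 2 or cadmium replicate 2 or 3, at adjusted p up to 0.10, 0.099 and 0.13. That of Hspa8 was also lost without control replicate 3 and that of Bag1 without cadmium replicate 1, and both after centring (0.055 and 0.074). Hspa8 differed by only 0.03 after quantile normalization (adjusted p = 0.80). Of 11 genes of p97, the ATPase that extracts ubiquitinated proteins, and its cofactors, 2 rose and 2 fell. These are 18.2% each, where 6.45% of all genes rose and 5.8% fell. Ubxn8 and Ubxn4, membrane cofactors, rose 1.24-fold each (adjusted p = 0.012 and 0.013). The call of Ubxn8 was lost without cadmium replicate 2 (0.052) or 3 (0.050), and that of Ubxn4 without control replicate 1 or 2 or cadmium replicate 3. Plaa and Vcpip1 fell by 0.34 and 0.39 (limma adjusted p = 0.0094 and 0.011), both below the bound. The p97 gene Vcp itself differed by -0.08 (adjusted p = 0.39), and by -0.24 after quantile normalization, where it was called (0.019).

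Deubiquitinases and ligases mostly lay lower. Of 42 deubiquitinases other than Psmd14, 2 rose and 13 fell, where 6.45% of all genes rose and 5.8% fell. The median over all 43 was -0.10, and 35 of them lay below the bound in both groups. Of those that fell, only Usp9x and Usp47 lay above the bound in both groups, and Otud4 in 1. Usp42 fell by 0.61 (limma adjusted p = 0.0027) and Usp1, which acts in DNA repair, by 0.58 (0.0036), both below the bound. Usp9x read 7.51, 7.55 and 7.60 in controls and 7.20, 7.10 and 7.12 with cadmium, 1.33-fold lower (0.0042). Uchl1, an abundant enzyme of neurons and endocrine cells, rose 1.23-fold (0.033), a call lost without any 1 array other than cadmium replicate 1 and after centring. Of 20 HECT and RBR ligases 0 rose and 5 fell (25%), where 6.45% of all genes rose and 5.8% fell. Herc1 fell by 0.77 (limma adjusted p = 0.0017), Ube3a by 0.56 (0.0016) and Herc2 by 0.50 (0.0036), the first and last at least 1.26-fold and 1.19-fold. Ube3a lay below the bound.

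Of 19 parts of cullin-RING ligases 1 rose (5.26%) and 3 fell (15.8%), where 6.45% and 5.8% of all genes did. Cul3, the cullin that pairs with the Nfe2l2 adaptor Keap1, fell 1.30-fold (limma adjusted p = 0.028), a call lost without control replicate 2 or cadmium replicate 2 or 3 (up to 0.098). Klhl12, a Cul3 adaptor, fell by 0.26 (0.033, up to 0.11 without any 1 array other than cadmium replicate 1), below the bound. Cops7a, of the signalosome that removes NEDD8 from cullins, rose by 0.19 (0.037, lost without any 1 array at up to 0.12 and after centring at 0.087). Of 19 ubiquitin-like modifiers and their enzymes 1 rose (5.26%) and 3 fell (15.8%), where 6.45% and 5.8% of all genes did. Gabarapl1, an autophagy modifier, read 5.29, 5.13 and 5.38 against 6.12, 6.07 and 6.00, below the bound, and rose by 0.80 (limma adjusted p = 0.0015). Pias1, a SUMO ligase, fell by 0.53 (0.0038) and Ufl1, the UFM1 ligase, by 0.50 (0.0067), the latter below the bound. The difference between these lists and the proteasome subunits was not tested. The 4 ubiquitin precursor genes were not analysed here.

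**Figure D4:**
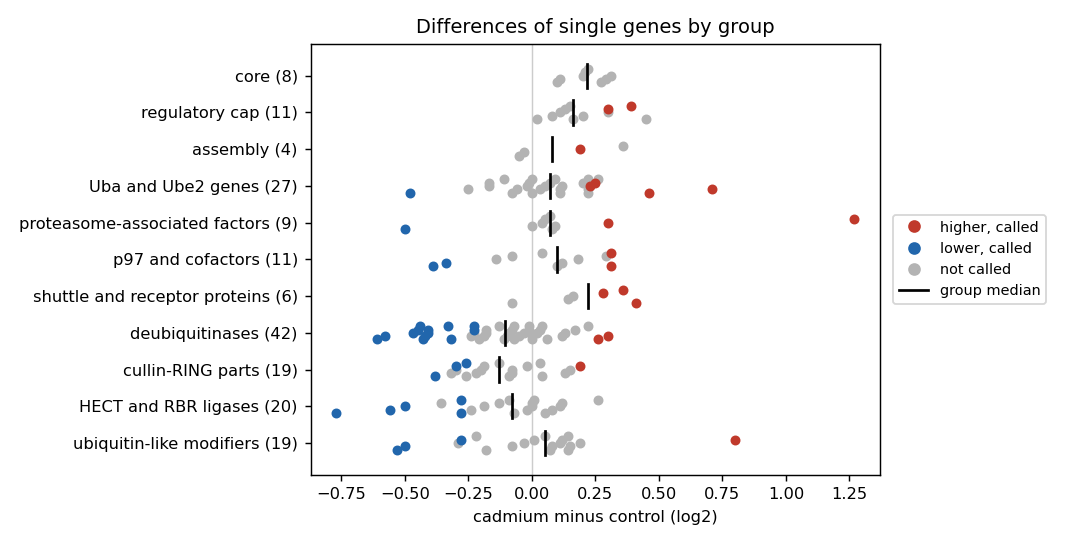
Difference in log2 signal, cadmium minus control (horizontal axis), of each gene in the 4 member groups and 7 pathway lists (rows, number of genes in brackets). Red and blue points are genes called higher and lower, grey points genes not called, and black bars group medians. The 8 core genes all lie right of 0 with 0 called, where 62.5% of all genes lie right of 0. Of 42 deubiquitinases 13 are called lower, where 5.8% of all genes are.

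By the symbols, 96 protein-coding RefSeq genes belong to these families, and 49 of them were measured under a single name: 8 of 19 core genes, 11 of 25 cap genes, 4 of 7 assembly genes and 26 of 45 Uba or Ube2 genes. The other 47, among them Psmb5, Psmb6, Psmb8, Psmb9, Psme1, Ube2m and Ube2n, were not analysed here. The counts above therefore speak for the measured genes and not for the whole particle.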

How the data were processed

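Total RNA of 6 cultures was labelled with biotin and read on 1 array each. The authors deposited 1 value per transcript cluster and array, taken as log2 from the range of the values, with the base not stated. Their background correction, normalization and software were not given in the sources used here. The values were used without further scaling. The table has 46478 rows, 39746 of them transcript clusters and 6732 controls. The platform annotation, its symbols brought up to date with RefSeq GRCm38.p6, gave 1 gene to 18801 clusters, several to 1344 (not named) and none to 19601. The brightest probe stood for each of 18572 genes, of which 159 had more than 1, Uba1y among the members. Groups came from sample titles. Of the columns of values, 0 had no sample.

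The test was a moderated linear model of group over all 6 arrays (limma 3.58.1, lmFit then eBayes, under R 4.3.3), two-sided, with Benjamini-Hochberg adjustment over all genes. The number of arrays limits the precision. The steps were tested on simulated data. Members and lists were chosen with earlier results of these data known. Named genes are all called members, the 2 uncalled members of each role with the lowest adjusted p, 27 fixed members of which 11 were measured, up to 3 called genes of each pathway list, and 10 fixed pathway genes of which 4 were measured. Other members are given for completeness, with Nfe2l2, Uchl1 and Ubxn4 added after their values were seen. Figures were drawn with matplotlib 3.10.9.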

Additional observations from a re-analysis of the deposited data

How the results depend on the processing

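Alternatives are named by what they change, and each was run on all genes, the members and the 4 roles as planned. For the other pathway genes they were chosen after seeing the data. Over all genes 1198 rose and 1078 fell. Rises numbered 410 among genes at or above the bound, where fewer genes were tested, 1847 with array weights, 729 with the replicate block and 444 at a threshold of 0.01, and falls 296, 1511, 643 and 415. Leaving out 1 array gave 594 to 1312 rises and 531 to 1040 falls. Of the members 7 rose, against 2 after centring, 15 with array weights, 3 with the block, 1 at 0.01 and 1 to 22 without single arrays. The fall of Uba6 was lost, to 0, in both filters on level, which leave that gene out, and the count stayed at 1 to 1 without single arrays. In the core 0 rose, but 1 did in the median-level filter (Psmb7), 3 with array weights and 0 to 7 without single arrays. In the cap 2 rose, against 0 after centring, 4 with weights, 1 with the block, 0 at 0.01 and 0 to 8 without single arrays. Of the assembly genes 1 rose, against 0 after centring, quantile normalization, the block and at 0.01, 2 with weights and 0 to 1 without single arrays. Of the Uba and Ube2 genes 4 rose, against 2 after centring, among genes above the bound and with the block, 1 at 0.01 and 1 to 6 without single arrays. Of the other pathway genes 11 rose, against 5 after centring, 3 with the block, 2 at 0.01 and 2 to 10 without single arrays. Of the same genes 27 fell, against 12 at 0.01 and 16 to 26 without single arrays. Among those at or above the bound 7 of 31 fell and 8 rose, where 13.5% and 18.7% of genes did. Other counts stayed within 1.5 times, and 0 named genes changed direction with a call. Ube2f and Uba6 kept their calls in every fit that held them. Same-numbered arrays deviated together at correlations of -0.108, 0.053 and -0.111. These values, from deviations within groups of 3 arrays, cannot settle whether equal numbers share a day or passage, which the labels do not name. Whether the numbers pair the samples is therefore not known, and the block cut the members' rises to 3. Signal over background limits the 29 of 50 members that lay below the bound in both groups.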
